A study of Mus musculus with 6 samples.

Results

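The cadherin superfamily was examined in sorted cells of the mouse retina, 3 days after crush of the optic nerve, with and without virally supplied Sox11, a transcription factor of developing neurons. Its members were taken by gene name: numbered cadherins, cadherin-related genes, protocadherins, and the Celsr, Fat and Dchs genes. They came to 71 of the 15450 named genes of the deposited table and lay on 92 transcript rows. Of 105 such protein-coding genes in the GENCODE M21 annotation, 34 had no row under their own name in the table (1 of them, Pcdhgc4, has a row that the table names Pcdhga8); the others were not analysed here. The classical cadherins comprised 2 type I genes (Cdh2 and Cdh4) and 11 type II genes. Beside them stood 5 atypical cadherins, 10 non-clustered protocadherins, 37 clustered protocadherins (8 alpha, 21 beta and 8 gamma genes) and 6 Fat and Celsr genes.

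Mouse eyes (3 to 4 weeks of age at the outset) were injected with an adeno-associated virus carrying Sox11 (AAV-Sox11) or, in the controls, PLAP (AAV-Control), and both groups then had the crush, so no uninjured retina was compared. The virus had 2 weeks in the eye. Each of the 3 libraries per group (A, B and C) came from 3 pooled retinas of 3 animals, and control and Sox11 libraries of the same letter were prepared on the same day, per the series description. Live cells positive for Thy1, a surface protein of retinal ganglion cells, were sorted. The promoter of the viral cargo, the mouse strain and the sex of each pool are not stated in the labels. Because each library is a pool of animals, p-values measure the spread between pools, as far as the deposited values keep it.

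Cadherins are calcium-dependent adhesion proteins. Classical type I and type II cadherins bind the same or related cadherins on neighbouring cells and link to actin through catenins, and in the retina type II cadherins help to sort axons and dendrites into layers. Clustered protocadherins are encoded in an array in which each alternative first exon has its own promoter; neurons choose among these promoters, and the resulting proteins let branches of the same cell recognise and avoid each other. The non-clustered, or delta, protocadherins have separate genes. The giant Fat and Dachsous cadherins and the Celsr receptors act in planar cell polarity and axon guidance.

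The whole-number values of the libraries summed to between 10747985 and 11546892. These are adjusted values rather than raw reads, and a direction of variation within groups had been taken out of them before deposit, with most of its weight on the AAV-Sox11 libraries (18.4%, 57.7% and 12.5% for A, B and C). The SDs of the AAV-Sox11 group are therefore too small by an unknown amount. The same holds for the SEs and p-values that rest on them, so the calls are less certain than their adjusted p-values show. Sox11 had normalized values of 179.3, 233.7 and 283.6 with AAV-Sox11, against 131.1, 110.8 and 100.3 with AAV-Control, and its limma adjusted p was 0.0504. Thy1 averaged 2908 ± 323 with AAV-Sox11 and 2303 ± 690 with AAV-Control (SD, n = 3 each), but the rod gene Gnat1 averaged 10550 ± 2700 with AAV-Sox11 and 14530 ± 3850 with AAV-Control. The ganglion cell marker Rbpms averaged 41.85 ± 1.41 with AAV-Sox11 and 42.44 ± 12.9 with AAV-Control. Slc17a6, also a marker of these cells, averaged 2404 ± 765 and 1188 ± 277. The median level of 11 ganglion cell markers was 68.4 per kb of transcript, beside 105 over all genes and 5390 for Gnat1. The libraries thus held RNA of ganglion cells together with RNA of other retinal cells. Control A stood apart, with a summed value of the pericyte list (3 of 4 genes in the table) of 15918, against 2987 to 6244 in the other 5 libraries. In bulk samples such as these, fewer cells of a type and less RNA per cell cannot be told apart.

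Among the 71 genes, 1 fell with AAV-Sox11 and 0 rose at a limma adjusted p under 0.05, where 1.52% of all genes fell and 0.796% rose. The gene that fell was Pcdh8. At an unadjusted p under 0.05 there were 19 lower and 13 higher members (26.8% and 18.3% of them), where 11.8% of all genes were lower and 12.6% higher. The groups did not overlap for 24 lower and 10 higher members (33.8% and 14.1%), where the shares over all genes were 14.4% and 16.2%. The median log2 fold change of the members was -0.14, beside 0.03 for all genes tested. With the replicate letter as a block in the fit, 4 members were called higher (Cdh4, Cdh24, Pcdh10 and Pcdh18) and 1 lower (Pcdh8), where 2.09% of all genes were called higher and 2.68% lower.

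The classes were not alike in their medians. The 10 non-clustered protocadherins had a median log2 fold change of 0.48, the 6 Fat and Celsr genes 0.11, the 13 classical cadherins 0.05, the 37 clustered protocadherins -0.23 and the 5 atypical cadherins -0.44. Classical and clustered genes kept the same order in each of the 3 same-day pairs: the medians for A, B and C were -0.03, 0.19 and 0.39 for the classical genes, and -0.29, -0.14 and -0.21 for the clustered ones. Over all genes these medians were 0.00, 0.04 and 0.03. With the sex index of the pools in the fit, the medians were -0.01 for the non-clustered genes, -0.19 for the Fat and Celsr genes, -0.06 for the classical genes and -0.24 for the clustered ones; the index was higher in the AAV-Sox11 library of every same-day pair. The difference between the classes was not tested, since the genes of a class are not replicates and those of the clustered array share sequence.

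**Figure D1:**
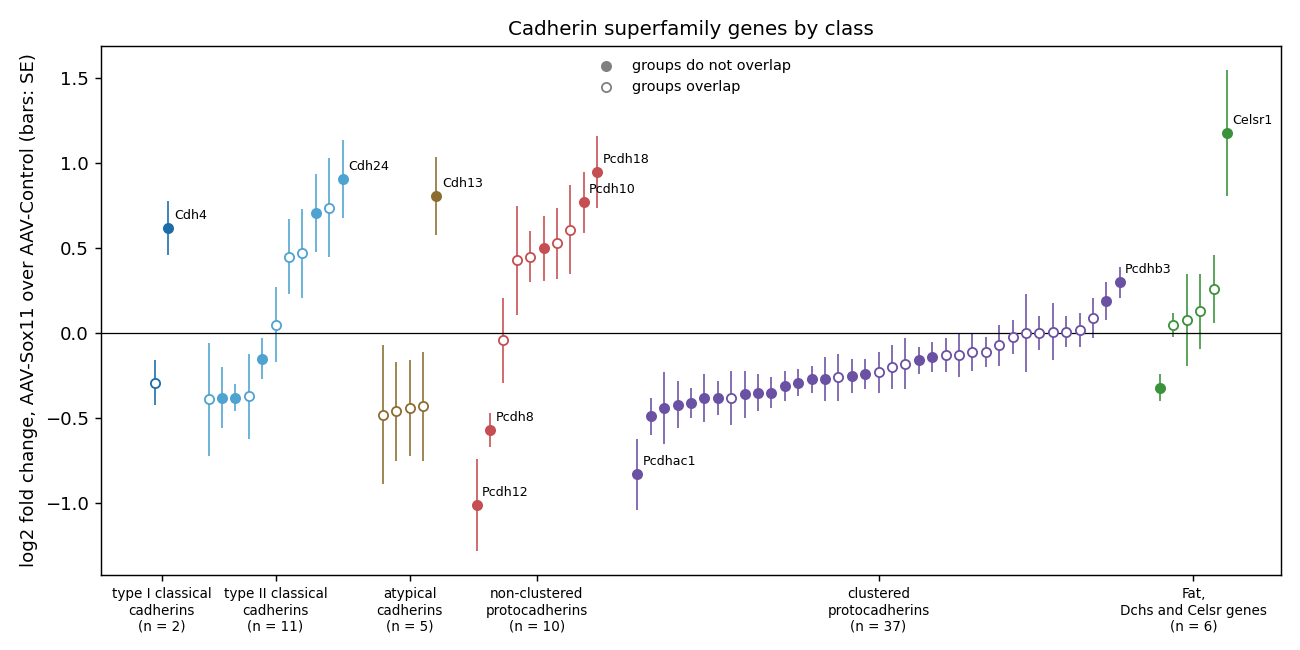
Log2 fold change of each of the 71 genes, AAV-Sox11 over AAV-Control, with its standard error, sorted within classes along the x axis; filled points are genes whose 3 AAV-Sox11 and 3 AAV-Control libraries do not overlap. Most of the 37 clustered protocadherins lie below 0 and within a narrow band (-0.83 to 0.30), but the 10 non-clustered ones run from -1.01 to 0.95.

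Among the non-clustered protocadherins, Pcdh8 fell. Of the 10 genes, 7 had positive and 3 negative fold changes, where 46.2% of all genes had negative ones. The groups did not overlap for 3 higher and 2 lower genes of the 10, beside 16.2% and 14.4% of all genes. At an unadjusted limma p under 0.05, 6 were higher and 2 lower, beside 12.6% and 11.8% of all genes. Pcdh8 (arcadlin) is an activity-induced protocadherin known to bring N-cadherin off the surface of dendrites. It had normalized values of 402.4, 444.5 and 489.7 in AAV-Sox11 libraries, against 693.2, 664.8 and 629.1 in AAV-Control libraries. Its transcript has 3 exons (chromosome 14, 79766775 to 79771312, minus strand, GRCm38). Every AAV-Sox11 library lay below every control, with the widest gap in pair A. Its log2 fold change was -0.57 ± 0.10 (SE; limma adjusted p = 0.0406, n = 3 each), a fall to 0.671 of the control level, and the adjusted p with the replicate block was 0.0489. The call was lost without any of the 3 AAV-Sox11 libraries (adjusted p = 0.120 without A, 0.229 without B and 0.0884 without C) and without control A or B (0.0809 and 0.0520). It was likewise lost with the removed direction (0.127) or the sex index (0.125) as a covariate, where no gene of the table was called, and the log2 fold change stayed between -0.75 and -0.50 over all 17 alternatives. The authors' deposited table gives it a log2 fold change of -0.57 and a false discovery rate of 0.0314.

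Pcdh10, Pcdh17 and Pcdh18 are the other delta2 protocadherins of the table, and all 3 had higher means with AAV-Sox11. Pcdh10 (OL-protocadherin) binds the actin-regulating WAVE complex and is needed for the growth of some forebrain axons in mice. It had 878.9, 1165.1 and 1147.3 in AAV-Sox11 libraries, against 617.5, 767.8 and 495.9 in AAV-Control libraries. Pcdh18, known to bind the adaptor Dab1, had 782.9, 981.3 and 859.7 in AAV-Sox11 libraries, against 546.6, 525.6 and 320.3 in AAV-Control libraries. For both genes the lowest AAV-Sox11 library lay above the highest control, and control C was the lowest of all. The log2 fold changes were 0.77 ± 0.18 for Pcdh10 and 0.95 ± 0.21 for Pcdh18 (SE), with limma adjusted p = 0.0647 and 0.0586. They passed the threshold with the replicate block, at 0.0489 and 0.0435. In the authors' deposited table Pcdh18 had a false discovery rate of 0.00173, and the 2 rows of Pcdh10 had 0.0185 and 0.0145. In the fit with the sex index they were 0.34 and 0.46 (adjusted p = 0.324 and 0.311). Pcdh17, which also binds the WAVE complex, had 1687.9, 2304.3 and 1929.6 with AAV-Sox11, against 1435.0, 1746.5 and 834.6 with AAV-Control, so its groups overlapped; its log2 fold change of 0.61 ± 0.26 (adjusted p = 0.202) was 0.00 with the sex index.

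**Figure D2:**
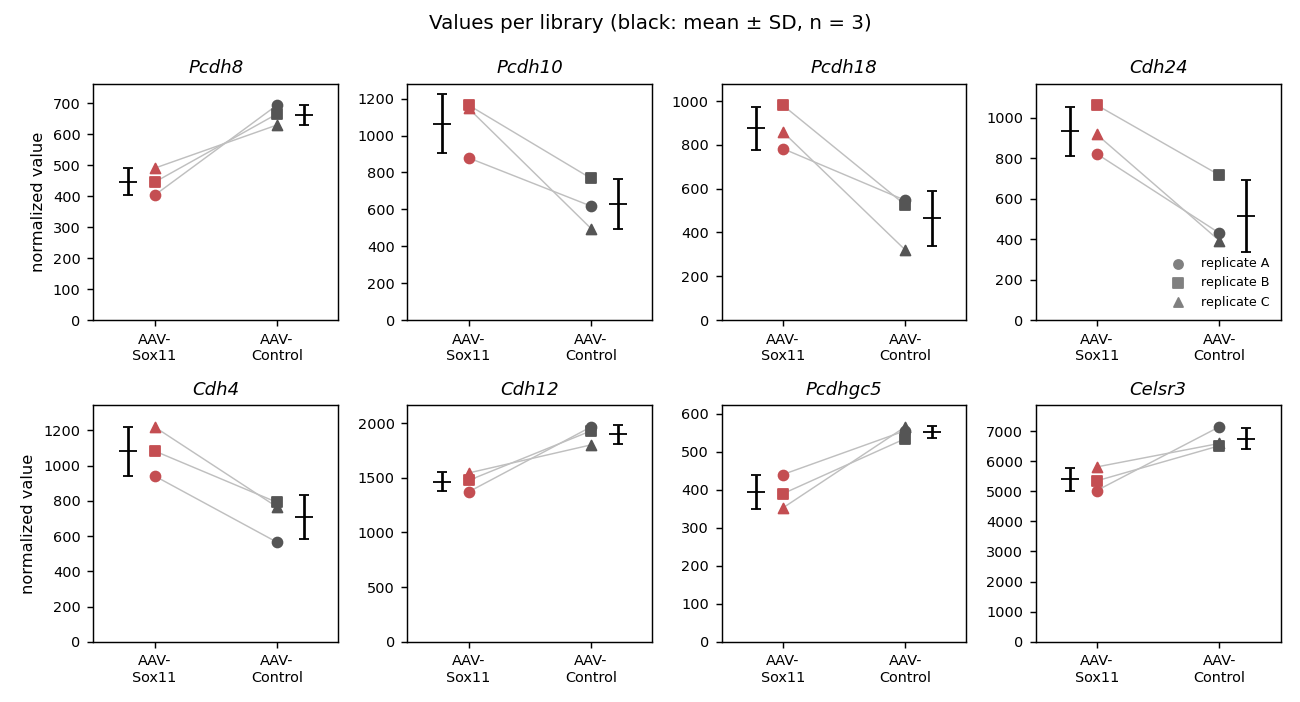
Normalized values of 8 genes in each library, AAV-Sox11 left and AAV-Control right, with lines joining libraries made on the same day and black marks for the mean and SD of 3 libraries; each y axis starts at 0. The groups do not overlap for any of the 8 genes; Pcdh10, Pcdh18, Cdh24 and Cdh4 are higher in all 3 AAV-Sox11 libraries, and Pcdh8, Cdh12, Pcdhgc5 and Celsr3 lower.

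Of the delta1 protocadherins, Pcdh9 and Pcdh7 were the most abundant, with levels per kb of transcript of 726 ± 170 and 443 ± 96.4 (SD over 6 libraries), against a median of 105 over all genes. Pcdh7 had 1719.1, 2126.7 and 2022.1 with AAV-Sox11, against 1428.2, 1723.9 and 1177.1 with AAV-Control. Control B lay just above AAV-Sox11 A, so the groups overlapped, and the log2 fold change was 0.45 ± 0.15 (limma adjusted p = 0.130). Pcdh9 had 2388.4, 2978.3 and 2449.5 with AAV-Sox11, against 3407.8, 3241.9 and 1713.6 with AAV-Control. Its controls spanned the whole AAV-Sox11 range, at a log2 fold change of -0.04 ± 0.25 (adjusted p = 0.942). The X-linked Pcdh11x did not overlap between groups, with 150.1, 153.7 and 179.0 against 91.3, 110.8 and 141.8 (AAV-Sox11 against AAV-Control; 0.50 ± 0.19, adjusted p = 0.158). Pcdh1 (0.43) and Pcdh20 (0.53), which overlapped between groups, also had positive log2 fold changes, with adjusted p = 0.433 and 0.184.

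Pcdh12, an endothelial protocadherin also called VE-cadherin-2, went the other way at the lowest level of all members. It had 8.3, 7.3 and 9.0 with AAV-Sox11, against 16.5, 14.7 and 22.2 with AAV-Control, with no overlap and a log2 fold change of -1.01 ± 0.27 (limma adjusted p = 0.0814). Only 2 of the 7 endothelial markers, Kdr and Flt1, had rows in the table, and their summed values were 2237, 2374 and 2008 with AAV-Sox11, against 4845, 2282 and 1688 with AAV-Control. These sums overlapped between groups and were highest in control A, and the part of endothelial cells in the Pcdh12 values was not tested. The retinal ganglion cell list, with 11 of its 12 markers in the table (Pou4f3 had no row), summed to 8711, 11262 and 11692 with AAV-Sox11, against 10644, 9988 and 7090 with AAV-Control. Of the 11, 8 had positive and 3 negative fold changes (median 0.59), where 46.2% of all genes had negative ones. Limma called 1 higher (adjusted p = 0.0447) and 0 lower, beside 0.796% and 1.52% of all genes. The groups did not overlap for 4 higher markers and 0 lower ones, beside 16.2% and 14.4% of all genes. Like Pcdh10, Pcdh17, Pcdh18 and Pcdh7, this list was lowest in control C; its part in their values was not tested.

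The windows around the transcription start are given for Pcdh8, which fell, and for Pcdh18, Pcdh10 and Cdh24, which were higher with the block. Each covers 250 bases before and 50 after the start (RefSeq, GRCm38.p6) and reads 5′ to 3′ on the strand of the gene. Their base content was not compared with that of other members, and a link to the direction of change was not tested. Cdh4 is not in the promoter table. The windows are chr14:79771263-79771562 (minus strand) for Pcdh8, chr3:49757267-49757566 (minus) for Pcdh18, chr3:45378148-45378447 (plus) for Pcdh10 and chr14:54641315-54641614 (minus) for Cdh24. Capitals mark ACAAAG, the core of the sequence that Sox proteins bind, or its reverse complement CTTTGT, extended to AACAAAG or CTTTGTT where those letters are present.
Pcdh8: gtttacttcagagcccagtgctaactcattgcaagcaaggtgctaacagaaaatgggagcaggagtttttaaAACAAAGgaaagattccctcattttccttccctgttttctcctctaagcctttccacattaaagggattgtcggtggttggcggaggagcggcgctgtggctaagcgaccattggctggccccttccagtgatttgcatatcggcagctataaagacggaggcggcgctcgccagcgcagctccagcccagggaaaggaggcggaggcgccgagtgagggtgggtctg
Pcdh18: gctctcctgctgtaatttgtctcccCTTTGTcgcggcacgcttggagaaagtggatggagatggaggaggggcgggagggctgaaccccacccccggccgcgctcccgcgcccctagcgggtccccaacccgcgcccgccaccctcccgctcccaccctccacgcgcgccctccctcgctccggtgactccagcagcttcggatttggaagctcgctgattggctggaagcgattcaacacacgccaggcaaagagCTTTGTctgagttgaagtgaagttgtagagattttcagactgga
Pcdh10: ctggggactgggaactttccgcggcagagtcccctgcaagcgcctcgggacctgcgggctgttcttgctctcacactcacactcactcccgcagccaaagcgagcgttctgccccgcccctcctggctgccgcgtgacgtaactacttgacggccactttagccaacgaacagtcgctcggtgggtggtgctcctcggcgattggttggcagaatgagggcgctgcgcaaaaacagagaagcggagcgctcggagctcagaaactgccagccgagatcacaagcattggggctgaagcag
Cdh24: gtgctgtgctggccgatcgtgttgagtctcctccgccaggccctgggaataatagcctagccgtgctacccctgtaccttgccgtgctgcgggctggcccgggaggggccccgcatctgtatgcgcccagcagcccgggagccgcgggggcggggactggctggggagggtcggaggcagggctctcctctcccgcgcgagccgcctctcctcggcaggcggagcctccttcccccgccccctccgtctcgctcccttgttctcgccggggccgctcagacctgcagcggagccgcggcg

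Pcdh8 held AACAAAG, and the shorter motif within it began at position -177, counted from the transcription start. Pcdh18 held the short motif on the other strand at -225 and 7, and no match was in the windows of Pcdh10 and Cdh24. Over all 32851 windows of the RefSeq table, read on both strands, 5.85% held AACAAAG and 18.7% held ACAAAG. Of the 29 windows of the 26 members that matched by symbol, 3 held AACAAAG (Cdh6, Cdhr3 and Pcdh8) and 5 held ACAAAG (these and Cdh7 and Pcdh18). The matches thus lay in members of either direction and are a description of letters only. The Pcdh8 window had 14 CG pairs and 54.3% G or C, near the median GC content of all windows (52.7%, with a median of 7 CG pairs). Those of Pcdh18, Pcdh10 and Cdh24 had 23, 24 and 30 CG pairs and 63.0%, 62.3% and 73.3% G or C.

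Classical cadherins went both ways. Of the 13 genes, 7 had positive and 6 negative log2 fold changes, from -0.39 to 0.91, and 0 were called in either direction without the block; at an unadjusted p under 0.05, limma gave 4 higher and 1 lower (30.8% and 7.69%, beside 12.6% and 11.8% of all genes). The groups did not overlap for 3 higher genes (Cdh4, Cdh20 and Cdh24) and 3 lower ones (Cdh7, Cdh12 and Cdh18), or 23.1% each way, beside 16.2% and 14.4% of all genes. Their summed values were 7674, 8353 and 8002 with AAV-Sox11, against 8428, 7527 and 6618 with AAV-Control, and overlapped. Leaving out control A moved the median of the class to 0.32, and leaving out control C to -0.12.

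The 2 type I genes differed in direction. Cdh4 (R-cadherin), which retinal neurons and astrocytes use in adhesion and axon growth, had 941.4, 1083.1 and 1219.7 in AAV-Sox11 libraries, against 565.0, 791.3 and 765.1 in AAV-Control libraries. All AAV-Sox11 libraries were above all controls, at a log2 fold change of 0.62 ± 0.16 (SE; limma adjusted p = 0.0733). Blocking by replicate letter gave 0.0327. The gene has 16 exons on chromosome 2 (179442431 to 179899373, plus strand, GRCm38). Cdh2 (N-cadherin), the main adhesion cadherin of neuroepithelium and synapses, had 887.2, 784.0 and 639.5 in AAV-Sox11 libraries, against 974.8, 944.3 and 875.1 in AAV-Control libraries, at -0.29 ± 0.13 (adjusted p = 0.225). The highest AAV-Sox11 library lay within the control range. A row of 2 exons annotated as a retained intron held 67.9% of the summed Cdh2 value; the main coding row (16 exons) held 30.3% and had a log2 fold change of -0.03 ± 0.17. Cdh2 had 230 ± 34.4 per kb and Cdh4 140 ± 37.0 per kb (SD over 6 libraries), and Cdh1, Cdh3 and Cdh15 had no rows in the table.

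Among type II cadherins, Cdh24 had the largest positive fold change and Cdh12 the smallest p of the negative ones. Cdh24, whose cytoplasmic part is known to bind catenins, had 821.5, 1062.3 and 917.1 with AAV-Sox11, against 430.1, 716.8 and 392.7 with AAV-Control. The groups did not overlap, and control B was nearest to the AAV-Sox11 libraries. The log2 fold change was 0.91 ± 0.23 (limma adjusted p = 0.0726, 0.0328 with the replicate block, and 0.0405 with the block and the removed direction together). With the sex index it was 0.54 (adjusted p = 0.415). The authors' deposited table gives Cdh24 a false discovery rate of 0.00614 and Cdh4 one of 0.0196. Cdh12 (N-cadherin 2, a brain type II cadherin) had 1370.9, 1475.6 and 1543.5 with AAV-Sox11, against 1965.0, 1928.9 and 1800.5 with AAV-Control. It was lower in all 3 AAV-Sox11 libraries, at -0.38 ± 0.08 (adjusted p = 0.0569), and passed the threshold under all 3 other scalings (0.0257 to 0.0455). Cdh12 lies on chromosome 15 (21111452 to 21589530, plus strand), as does Cdh18.

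Cdh20 (a type II cadherin) had 726.6, 843.2 and 722.0 with AAV-Sox11, against 642.7, 481.5 and 323.2 with AAV-Control, without overlap, at 0.71 ± 0.23 (limma adjusted p = 0.122). Cdh10 had 151.2, 185.9 and 137.8 with AAV-Sox11, against 68.9, 148.1 and 81.0 with AAV-Control, and overlapped through control B (0.74 ± 0.29, adjusted p = 0.175). Both Cdh10 rows are annotated as retained introns, and their log2 fold changes were 1.19 ± 0.35 and 0.27 ± 0.28 (adjusted p = 0.110 and 0.606 over the rows). Cdh6, which marks some direction-selective ganglion cells and their targets in mice, had 247.1, 326.1 and 304.7 with AAV-Sox11, against 242.7, 259.9 and 153.4 with AAV-Control (0.45 ± 0.22, adjusted p = 0.258). Cdh8 and Cdh9, which guide the axons of different bipolar cells to their layers in mice, had log2 fold changes of -0.37 ± 0.25 and -0.39 ± 0.33 (adjusted p = 0.397 and 0.501). Both were highest in control A, with 90.3 and 249.5. So were the bipolar markers, all 9 of which had rows, with sums of 7583, 7137 and 6562 with AAV-Sox11, against 12423, 7912 and 8344 with AAV-Control; their part was not tested. Cdh11, the most abundant classical member at 352 ± 80.2 per kb, had 1945.4, 2050.9 and 1965.8 with AAV-Sox11, against 2810.7, 1663.1 and 1502.3 with AAV-Control. Its log2 fold change of 0.05 ± 0.22 was -0.01 when library totals were used for scaling. The remaining type II members were Cdh7, whose values were tightly grouped at 140.8, 146.4 and 145.8 with AAV-Sox11, against 158.2, 165.7 and 157.3 with AAV-Control, and Cdh22, with 51.1, 67.5 and 68.4 against 35.9, 61.8 and 39.6 (AAV-Sox11 against AAV-Control). Cdh7 did not overlap between groups in spite of its small log2 fold change (-0.15 ± 0.12, adjusted p = 0.455), and Cdh22 did (0.47 ± 0.26, adjusted p = 0.303).

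Cdh18 gave a result at the level of transcripts that its gene sum did not show, in a test of the 26334 named rows that was added after the values had been seen. Its row ENSMUST00000170626, a retained-intron transcript of 2 exons and 1819 bases (chromosome 15, 23036455 to 23175141, plus strand, GRCm38), had 31.3, 27.0 and 30.2 in AAV-Sox11 libraries, against 70.9, 70.6 and 105.2 in AAV-Control libraries. All 3 AAV-Sox11 libraries lay far below the controls, and the log2 fold change was -1.43 ± 0.22 (limma adjusted p = 0.0272 over the rows, 0.0263 with the replicate block, 0.0718 with the removed direction and 0.176 with the sex index). The coding row of the gene (ENSMUST00000164787, 12 exons), which held 67.2% of the Cdh18 value, had 146.0, 129.8 and 136.8 with AAV-Sox11, against 112.6, 131.4 and 173.7 with AAV-Control. It overlapped fully, at 0.00 ± 0.18. Of the 92 member rows, this row and that of Pcdh8 were called lower and 0 higher, where 1.46% of all rows were called lower and 0.52% higher. With the replicate block 5 member rows were called higher (1 each of Cdh4, Cdh10, Cdh24, Pcdh10 and Pcdh18) and the same 2 lower, where 1.6% of all rows were called higher and 2.92% lower. In the authors' deposited table the retained-intron row had a log2 fold change of -1.48 with a false discovery rate of 7.67e-05.

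The clustered protocadherins were lower with AAV-Sox11 as a set of values, though none passed the adjusted threshold in the reported limma fit. In the authors' deposited table, Pcdhac1 (false discovery rate 0.0227) and the Pcdha11 row ENSMUST00000115657 (0.0266) were under 0.05, and no other row of the array was. Of the 37 genes, 31 had negative log2 fold changes (83.8%, beside 46.2% of all genes). In all 3 same-day pairs 25 were negative, where 3750 of all 15450 genes were. The groups did not overlap for 18 lower genes (48.6%) and 2 higher ones (5.41%), beside 14.4% and 16.2% over all genes. At an unadjusted limma p under 0.05, 15 were lower and 1 higher (40.5% and 2.7%, beside 11.8% and 12.6% of all genes). Limma's adjusted p called 0 of the 37 in either direction. Their summed values were 27075, 27572 and 27891 with AAV-Sox11, against 33308, 31181 and 30813 with AAV-Control. No control sum came down to the AAV-Sox11 ones, and the group means were 27510 ± 411 and 31770 ± 1350 (AAV-Sox11 and AAV-Control, SD, n = 3 each). The median log2 fold change of the class stayed between -0.29 and -0.18 over all 17 alternatives.

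The genes are not independent measurements. They lie head to tail in an array on chromosome 18 (GRCm38), and most alpha rows end in the same constant exons, as do the gamma rows: bases shared with another gene on the same strand made up 15.6% to 54.5% of the 9 alpha rows and 41.7% to 45.2% of the 9 gamma rows. None of the 21 beta rows shared bases, and 20 of them have 1 exon. How the authors' counting split reads from constant exons is not stated in the labels, so the alpha and gamma values of single genes are uncertain. Some names are uncertain too: the row named Pcdha4 is Gm42416 in GENCODE M21, which ends inside the gamma genes and shares 446 bases, and 1 of the 2 rows summed as Pcdhga8 (ENSMUST00000066140, 49.2% of its value) is Pcdhgc4 there. The 2 rows summed as Pcdha11 have different gene identifiers and start at different first exons (37010752 and 37005203), so that sum joins separate members of the array.

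**Figure D3:**
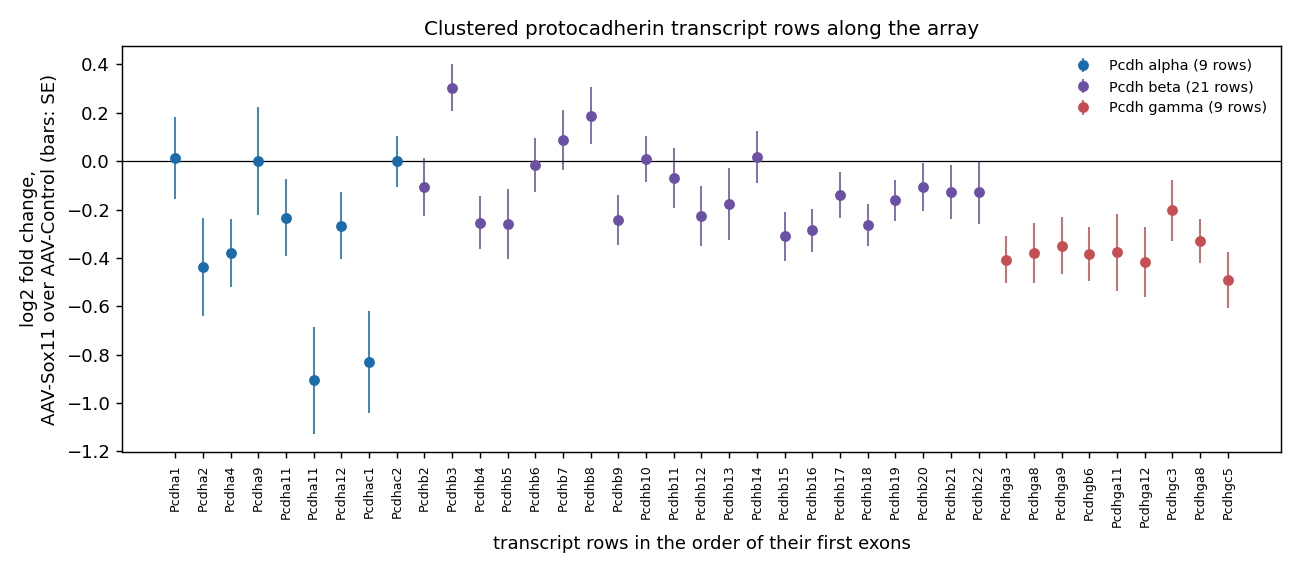
Log2 fold change, AAV-Sox11 over AAV-Control, with standard error, of the 39 clustered protocadherin transcript rows in the order of their first exons; names are those of the deposited table, with 2 rows each for Pcdha11 and Pcdhga8. All 9 gamma rows lie between -0.49 and -0.20, and the 21 beta rows run from -0.31 to 0.30.

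All 8 gamma genes had negative fold changes, from -0.49 to -0.20 on the log2 scale, and 6 did not overlap between groups, where 14.4% of all genes were lower without overlap. In mice the gamma genes are known to be needed for the survival of many retinal neurons and, in starburst amacrine cells, for self-avoidance of dendrites. Pcdhgc5, a C-type isoform, had 439.9, 389.4 and 351.9 in AAV-Sox11 libraries, against 555.3, 534.4 and 565.4 in AAV-Control libraries. Its controls lay close together and all above the AAV-Sox11 libraries, at -0.49 ± 0.11 (limma adjusted p = 0.0584). Pcdhga3 had 974.8, 1074.8 and 1164.4 with AAV-Sox11, against 1383.5, 1483.7 and 1386.5 with AAV-Control, also without overlap, at -0.41 ± 0.09 (adjusted p = 0.0596). It passed the threshold under all 3 other scalings (adjusted p = 0.0344 to 0.0490). The most abundant gamma gene was Pcdhgc3, a C-type isoform, at 425 ± 61.4 per kb (SD over 6 libraries). The 2 rows summed as Pcdhga8 came to 386 ± 56.3 per kb, 202 per kb for its own row and 184 for the one named Pcdhgc4 in the annotation, against 264 ± 42.9 for Pcdhga3. Pcdhgc3 had 1833.8, 1914.9 and 1774.8 with AAV-Sox11, against 2520.4, 2111.2 and 1786.0 with AAV-Control, and control C fell within the AAV-Sox11 range (-0.20 ± 0.13, adjusted p = 0.356). Pcdhga8 had 1742.1, 1686.4 and 1521.4 with AAV-Sox11, against 2198.1, 2165.2 and 1957.7 with AAV-Control, with no overlap (-0.35 ± 0.09, adjusted p = 0.0719). The remaining gamma genes Pcdhga9, Pcdhga11, Pcdhga12 and Pcdhgb6 had -0.35, -0.38, -0.42 and -0.38 (adjusted p = 0.123, 0.200, 0.137 and 0.0838), and of these only Pcdhga11 overlapped between groups. The summed gamma values were 7439, 7547 and 6921 with AAV-Sox11, against 9851, 9685 and 8299 with AAV-Control. No AAV-Sox11 sum reached the lowest control sum.

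The alpha genes were the least abundant of the array, at 14.6 to 85.0 per kb, and 7 of the 8 had negative fold changes (median -0.31), though those of Pcdha9 and Pcdhac2 rounded to 0.00. Pcdhac1 had 51.1, 63.3 and 63.3 with AAV-Sox11, against 94.2, 138.3 and 90.7 with AAV-Control. The groups did not overlap, and its log2 fold change of -0.83 ± 0.21 (limma adjusted p = 0.0768) was the most negative of the gene sums of the array. 1 of the 2 rows summed as Pcdha11 (ENSMUST00000115657, 18.7% of the sum) had -0.91 ± 0.22 (limma adjusted p = 0.0721 over the rows). The other (ENSMUST00000115658) had -0.23 ± 0.16 (adjusted p = 0.422). Pcdhac2, the other C-type alpha isoform and the one that serotonergic neurons of the mouse need for axon tiling, had 437.9, 472.5 and 481.7 with AAV-Sox11, against 493.2, 468.7 and 431.3 with AAV-Control (0.00 ± 0.10, adjusted p = 0.999). These neighbours thus had unlike fold changes, though their rows share the alpha constant exons. Pcdha2, Pcdha4, Pcdha11 and Pcdha12 did not overlap between groups either, at -0.44, -0.38, -0.36 and -0.27 (adjusted p = 0.242, 0.152, 0.179 and 0.268). Pcdha1, Pcdha9 and Pcdhac2 overlapped. The summed alpha values were 1532, 1594 and 1571 with AAV-Sox11, against 1752, 1980 and 1834 with AAV-Control.

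The beta genes, which encode no shared cytoplasmic constant part, spread to both sides, with 16 of 21 negative (median -0.13). Pcdhb16 was the most abundant clustered gene, at 645 ± 81.3 per kb (SD over 6 libraries). It had 3006.7, 2973.1 and 3117.2 with AAV-Sox11, against 4026.2, 3378.2 and 3713.8 with AAV-Control. The AAV-Sox11 libraries lay below all controls, at -0.29 ± 0.08 (limma adjusted p = 0.101). Pcdhb17, the next at 464 ± 41.7 per kb, had 2025.6, 2077.9 and 2058.3 with AAV-Sox11, against 2545.6, 2175.0 and 2089.9 with AAV-Control, with a gap to control C of little size (-0.14 ± 0.09, adjusted p = 0.382). Pcdhb15, Pcdhb18, Pcdhb19, Pcdhb4 and Pcdhb9 were the other beta genes below all controls, at log2 fold changes of -0.31, -0.27, -0.16, -0.25 and -0.24 (adjusted p = 0.0993 to 0.245). Of these, Pcdhb18 had 1352.2, 1365.6 and 1461.0 with AAV-Sox11, against 1614.6, 1637.6 and 1771.5 with AAV-Control, and its fold change was nearly the same in each same-day pair (-0.26, -0.26 and -0.28). Pcdhb3 was higher in all 3 AAV-Sox11 libraries, with 854.9, 889.9 and 939.2, against 778.6, 682.5 and 715.9 in AAV-Control libraries (0.30 ± 0.09, adjusted p = 0.0988). Pcdhb8 was the other beta gene above all controls, with 570.3, 581.5 and 564.1 against 434.0, 556.0 and 524.9 (AAV-Sox11 against AAV-Control; 0.19 ± 0.11, adjusted p = 0.341). The summed beta values were 18104, 18430 and 19399 with AAV-Sox11, against 21704, 19516 and 20680 with AAV-Control, and did not overlap.

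Some markers of other cells also differed between the groups, though not all in the same direction. The horizontal cell list (3 of 4 genes in the table, without Lhx1) summed to 6599, 6757 and 7377 with AAV-Sox11, against 12146, 10744 and 11400 with AAV-Control. Nearly all of this sum was Prox1, with 6358.4, 6475.7 and 7038.8 with AAV-Sox11, against 11695.2, 10448.4 and 11101.9 with AAV-Control (-0.74 ± 0.08, limma adjusted p = 0.0153); Calb1 and Onecut1 overlapped between groups. All 9 bipolar markers had negative fold changes (median -0.79), where 46.2% of all genes did. Limma called 0 of the 9, and 7 overlapped between groups. Their medians in the same-day pairs A, B and C were -1.44, -0.13 and -0.88. The amacrine list, with 7 of 9 genes in the table (without Chat and Th), summed to 13022, 15271 and 15141 with AAV-Sox11, against 13317, 16375 and 13094 with AAV-Control. These sums overlapped, but 2 of the 7 genes fell, Pax6 (-0.60 ± 0.08, limma adjusted p = 0.0220) and Slc6a9 (-0.93 ± 0.18, adjusted p = 0.0481). The list went both ways: 4 of the 7 had positive fold changes, and its median was 0.09. Tfap2a was higher without overlap (0.52 ± 0.27, adjusted p = 0.282). The part of these cells in the values of the clustered protocadherins was not tested. From a list of 13 genes known to act on promoter choice in the array (CTCF, cohesin and its loaders, DNA and histone methyltransferases), 0 were called by limma. At an unadjusted limma p under 0.05, 2 were higher (15.4%, beside 12.6% of all genes) and 0 lower (beside 11.8%). Of these 13, 11 had positive fold changes (median 0.18, beside 0.03 for all genes) and 2 negative ones (15.4%, beside 46.2% of all genes). The smallest p was that of Smc1a, a cohesin subunit, with 3659.3, 4076.9 and 3888.4 with AAV-Sox11, against 2984.4, 3487.0 and 2803.9 with AAV-Control (0.33 ± 0.10, adjusted p = 0.105).

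**Figure D4:**
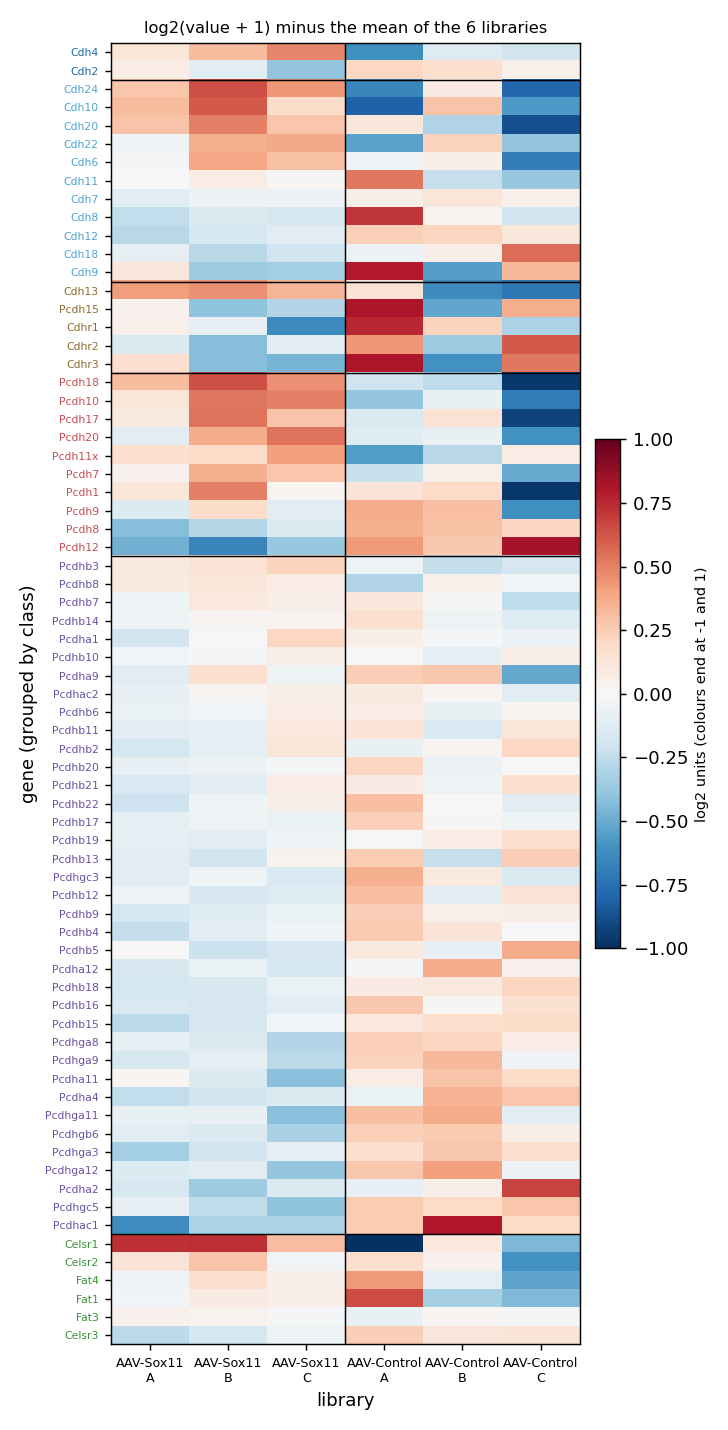
Log2(value + 1) of each of the 71 genes in each library, minus the mean of the 6 libraries, with genes grouped by class (name colours, lines) and sorted by fold change within it; colours end at -1 and 1 log2 units. The clustered protocadherins show low contrast and are mostly paler or blue in AAV-Sox11 libraries. Control A and control C stand apart from control B in Cdh9, Cdh10, Cdh22, Cdh24, Cdhr2, Cdhr3 and Pcdh15. In Cdh11, Cdh13 and Fat1, control A stands apart from controls B and C.

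Of the 5 atypical cadherins, Cdh13 was the only one with a positive fold change. Cdh13 (T-cadherin), which is held in the membrane by a lipid anchor and has no cytoplasmic part, had 276.3, 284.5 and 261.4 with AAV-Sox11, against 228.2, 132.4 and 125.4 with AAV-Control. The AAV-Sox11 libraries were alike and above all controls, at 0.81 ± 0.23 (limma adjusted p = 0.0920). Without control A it was 1.08 (adjusted p = 0.0417). Cdhr1, a photoreceptor cadherin whose loss causes retinal degeneration, was the most abundant of the class at 596 ± 207 per kb (SD over 6 libraries). It had 2554.2, 2333.4 and 1587.7 with AAV-Sox11, against 4167.0, 2884.0 and 1977.0 with AAV-Control, at -0.44 ± 0.28 (adjusted p = 0.368). The groups overlapped, but each AAV-Sox11 library lay below its same-day control. The rod markers, all 9 of which had rows, summed to 43621, 35612 and 23876 with AAV-Sox11, against 60479, 47707 and 38153 with AAV-Control. Cdhr1 and the rod sum ranked the 3 libraries of each group alike; the part of rods in the Cdhr1 values was not tested.

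Pcdh15, the tip-link protocadherin of hair cells that is also found in photoreceptors, had 223.1, 164.1 and 177.0 with AAV-Sox11, against 380.6, 151.0 and 278.8 with AAV-Control. Control B was the lowest library and control A the highest, so the log2 fold change of -0.43 ± 0.32 (limma adjusted p = 0.433) was within the spread of the controls. Cdhr2, a cadherin of epithelial microvilli, had 35.4, 29.1 and 36.2 with AAV-Sox11, against 53.4, 30.4 and 60.8 with AAV-Control (-0.46 ± 0.29, adjusted p = 0.365). Cdhr3 was lower still in level, at 6.73 per kb, with -0.48 ± 0.41 (adjusted p = 0.496).

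Fat3, the most abundant member of all at 1170 ± 33.7 per kb (SD over 6 libraries), was nearly level between the groups. It is the giant cadherin that shapes the dendrites of amacrine cells in mice. It had 22175.6, 22127.1 and 21442.1 with AAV-Sox11, against 20512.6, 21849.9 and 21350.9 with AAV-Control. The ranges overlapped, and the log2 fold change of 0.05 ± 0.07 (limma adjusted p = 0.730) was -0.02 with library totals and 0.00 with upper quartiles as the scale. Fat4 (partner of Dachsous in planar polarity) had 3463.3, 3992.8 and 3703.4 with AAV-Sox11, against 4777.7, 3328.2 and 2462.4 with AAV-Control (0.13 ± 0.22, adjusted p = 0.744). Fat1, which guides actin and cell movement, had 918.5, 986.5 and 979.4 with AAV-Sox11, against 1467.0, 740.4 and 687.0 with AAV-Control (0.08 ± 0.27, adjusted p = 0.873). For both, control A lay above and controls B and C mostly below the AAV-Sox11 libraries. Control A was likewise high in the pericyte sum (15918) and the endothelial sum (4845); their part was not tested.

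The 3 Celsr genes encode cadherins with a receptor-like membrane part that act in planar polarity and, for Celsr3, in the guidance of axon tracts. Celsr3 was lower in all 3 AAV-Sox11 libraries, with 5023.9, 5345.9 and 5808.0, against 7137.9, 6509.3 and 6588.2 in AAV-Control libraries. Its log2 fold change was -0.32 ± 0.08 (limma adjusted p = 0.0764), and it passed the threshold with upper quartiles (0.0499) and library totals (0.0415) as the scale. Its row shares 65 of 11547 bases with another gene on the same strand. Celsr1 had 198.1, 199.4 and 147.8 with AAV-Sox11, against 43.7, 128.5 and 86.8 with AAV-Control. It had the largest fold change of all members, 1.18 ± 0.37 (adjusted p = 0.113), with no overlap and a low level (12.3 per kb), and control A was its lowest library. Without control B it was 1.53 (adjusted p = 0.0496). Celsr2 had 1904.7, 2126.7 and 1714.4 with AAV-Sox11, against 1976.7, 1801.4 and 1145.3 with AAV-Control (0.26 ± 0.20, adjusted p = 0.463). Fat2, Dchs1 and Dchs2 had no rows in the table.

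**Figure D5:**
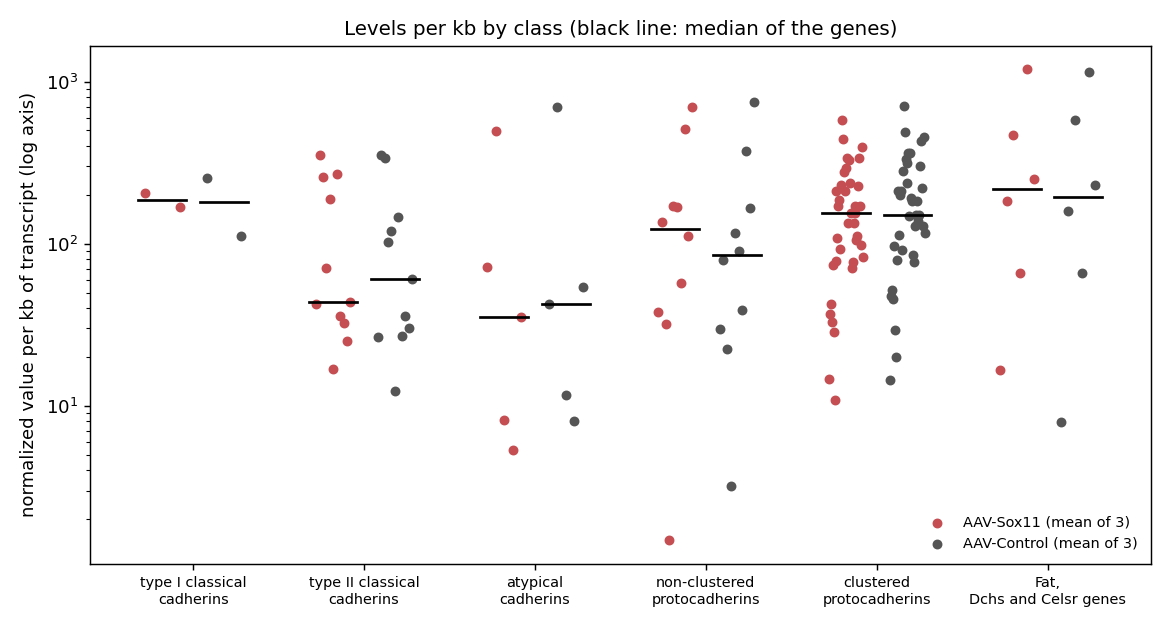
Normalized value per kb of transcript of each of the 71 genes (log axis), as the mean of 3 AAV-Sox11 libraries (left in each class) and 3 AAV-Control libraries (right), with the median of the class as a black line. Over the 6 libraries Fat3 is highest at 1170 per kb and Pcdh12 lowest at 2.35 per kb.

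Genes that work with cadherins were examined as a list of 54 in 6 groups: catenins and junction proteins, nectins, sheddases, planar polarity genes, genes of promoter choice and protocadherin signalling genes. Limma called 0 of the 54; at an unadjusted p under 0.05, 6 were higher and 6 lower (11.1% each, beside 12.6% and 11.8% of all genes), and the median log2 fold change was 0.11. The 13 catenin and junction genes had a median of 0.04, and 4 were lower without overlap (30.8%, beside 14.4% of all genes): Ctnna3 (-1.42 ± 0.29, adjusted p = 0.0536), Plekha7 (-0.85 ± 0.24, 0.0936), Ctnna2 (-0.62 ± 0.16, 0.0799) and Mllt4. The list went both ways, with 9 positive and 4 negative fold changes. Pkp4 was higher without overlap (0.47 ± 0.16, limma adjusted p = 0.132), or 7.69% of the list, beside 16.2% of all genes. Mllt4 (afadin), which ties nectins to actin, had 812.2, 757.1 and 711.9 with AAV-Sox11, against 1070.9, 983.5 and 1011.2 with AAV-Control, without overlap, at -0.43 ± 0.09 (adjusted p = 0.0531). Ctnnb1 (beta-catenin), the link of classical cadherins to alpha-catenin, had 120.9, 114.2 and 94.5 with AAV-Sox11, against 109.7, 96.1 and 81.0 with AAV-Control, and overlapped (0.20 ± 0.18, adjusted p = 0.515). All 6 genes of cadherin shedding had positive fold changes (median 0.22), where 46.2% of all genes had negative ones. The smallest p was that of Psen2 of gamma-secretase (0.69 ± 0.24, limma adjusted p = 0.143).

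In the planar polarity list (8 genes, median -0.22), Prickle2 had the smallest p, with 33.4, 30.1 and 36.2 with AAV-Sox11, against 97.1, 55.9 and 82.0 with AAV-Control. The groups were well apart, at -1.18 ± 0.24 (limma adjusted p = 0.0536). Among the 11 protocadherin signalling genes (median 0.13), it was Wasf1, the WAVE subunit that drives actin branching. It had 37.5, 39.5 and 39.2 with AAV-Sox11, against 98.1, 72.6 and 63.7 with AAV-Control, without overlap, at -0.97 ± 0.21 (adjusted p = 0.0569). Of the 3 nectins, Pvrl2 had the smallest p, at 0.41 ± 0.14 (adjusted p = 0.134).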

How the data were processed

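Polyadenylated RNA of sorted retinal cells was sequenced in 6 libraries, 3 per group. Per the submitters' processing notes, CASAVA 1.8.2, edgeR and the build mm10 were used; aligner, counter, strand setting and annotation are not stated. A table of 26691 transcript rows was deposited. The whole-number columns that the authors deposited are treated as a score, adjusted by an unrecorded step before deposit, and not as counts, because the libraries have no spread in 1 of the 5 directions in which they can differ (SD 9.48e-05 natural log units, against 0.0871 in the next). The deposited normalized columns, a signal, are these times 1 factor per library (0.9649 to 1.0425). The authors' deposited log2 fold changes and false discovery rates (adjusted p-values) are quoted only where named; 6 columns of per-library values were not used. Rows without a gene name (357, with 0.422% to 0.517% of each total) were left out. Depth is known only through the adjusted totals.

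Normalized values were summed per gene, and log2(value + 1) was fitted with limma-trend (limma 3.58.1, R 4.3.3) over all 15450 genes, with Benjamini-Hochberg adjustment and calls at 0.05. The count test written down for true counts was not used, since the values are not counts. Fold changes are AAV-Sox11 over AAV-Control on that scale, which understates changes of low genes; with 3 against 3 libraries an exact permutation test cannot go below p = 0.1, so none is given. Same-letter libraries were made on the same day, so the letters pair them. Correlations of their deviations were 0.0025, 0.793 and 0.236 for A, B and C. Between unlike letters they ran from -0.876 (AAV-Sox11 B with control C) to 0.198 (AAV-Sox11 A with control C). The correlation for A was thus below some of those between unlike letters, and that for C was little above the highest. Levels per kb divide each row by its GENCODE M21 length. The sex index is log2 Xist minus the mean log2 of 4 Y-linked genes, and was 6.86, 8.11 and 8.45 in AAV-Sox11 libraries, against 6.82, 6.79 and 5.26 in AAV-Control libraries.

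Values are given for members with adjusted p under 0.05, for the 3 most abundant per kb and the 2 of smallest p in each class, and for the partner gene of smallest p in each list; other members and partners were named after their values were seen. The members and lists were chosen with earlier results of these data known. Alternatives covered pseudocount, a minimum mean, scaling, transcript summing, the replicate block, the removed direction, the sex index and leaving out each library; a test of single transcript rows was added after the data had been seen.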

Additional observations from a re-analysis of the deposited data

How the results depend on the processing

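Calls depended on the settings. The count of members called lower was 1 in the reported fit, 3 with median-of-ratios scaling (Cdh12, Pcdh8 and Pcdhga3), 4 with upper-quartile scaling (Celsr3 added) and 5 with library totals (Pcdhga8 added); it was 0 with the removed direction, with the block and that direction together, and with the sex index, and 0 to 1 when each library was left out. The count called higher was 4 with the replicate block, 1 (Cdh24) with the block and the removed direction, and 0 to 4 when each library was left out (Cdh13 without control A, Cdh10, Cdh24, Celsr1 and Pcdh10 without control B, and Pcdh18 without control C). Over all 15450 genes, 235 were called lower in the reported fit and 288 with median-of-ratios scaling, and 123 and 122 higher. With the replicate block 414 were called lower and 323 higher. Over all genes, calls were 0 with the removed direction, with the sex index and without any AAV-Sox11 library. Counts over all genes under the remaining scalings and without a control library are not given here, so the member counts there have no background. The block changed no call of a named gene other than those of Cdh4, Cdh24, Pcdh10 and Pcdh18. The median of the non-clustered protocadherins was -0.01 with the sex index, and that of the classical cadherins ran from -0.12 to 0.32 over the fits without 1 library. Among the 23 genes named by rule, log2 fold changes changed sign for 5: Fat3 (0.00 with upper quartiles, -0.02 with library totals), Cdh11 (-0.01 with library totals, -0.24 with the sex index, and -0.12 to 0.33 without 1 library), Fat4 (-0.30 with the sex index, and -0.10 to 0.38 without 1 library), Pcdh17 (0.00 with the sex index) and Pcdh9 (-0.36 to 0.14 without 1 library). Of the 48 other members, 16 changed sign under some alternative, 10 of them with the sex index, among them Fat1 (-0.28), Celsr2 (-0.10), Cdh6 (-0.08), Pcdh1 (-0.18), Pcdh20 (-0.02) and Cdhr3 (0.03). The causes were not tested. Member transcript rows called lower numbered 2 as reported and with the block, 0 with the removed direction or the sex index, and 0 to 1 without 1 library; rows called higher numbered 0, or 5 with the block, and 0 to 5 without 1 library. Of 390 values of 23 named genes under 17 alternatives, 353 kept direction and side of the threshold. Scaling moved the median of all genes from 0.03 to -0.03 at most.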
